A study of Mus musculus with 11 samples.

Results

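Cathepsins and legumain are the proteases that break down proteins inside the lysosome, the acidic compartment in which cells digest material that they have taken up or no longer need. The genes described here are the 10 rows of the count table whose Ensembl identifier maps to Ctsa, Ctsb, Ctsc, Ctsd, Ctsh, Ctsk, Ctsl, Ctss, Ctsz or Lgmn, out of 55421 genes in all. They were chosen by name, with earlier results of these data known, and all 10 passed the filter on low counts in every comparison. RNA was sequenced from the hearts of 11 female C57BL/6J mice, 8 weeks old. In 8 mice the left anterior descending coronary artery was ligated to induce a myocardial infarction (MI), and 3 days later tissue labelled as infarct border zone was taken, which by the study's account held the infarct as well. In the A10i group (n = 4) they were treated with 100 mg/kg of GI254023X, which inhibits ADAM10, a membrane-bound metalloprotease that sheds the outer parts of other proteins, and in the DMSO group (n = 4) with the solvent alone. The sham group (n = 3) gave healthy tissue after an operation without ligation and was given DMSO as well, so the groups share strain, sex and age.

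Most cathepsins are papain-like cysteine proteases, whereas cathepsin D is an aspartic and cathepsin A a serine protease, and legumain is a cysteine protease that cuts after asparagine. All are made as inactive precursors and mature in the acidic lysosome, and cystatins and several serpins block those that escape it. Phagocytes such as macrophages, which clear dead tissue from the infarct, are rich in lysosomes, but cardiomyocytes, fibroblasts and endothelial cells use lysosomal proteases too. Because whole tissue was measured, more cells of a type and more RNA per cell cannot be told apart in any value given here.

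Total counts per mouse lay between 21702623 and 29511768, with overlapping ranges in the 3 groups. The 10 genes held 0.134 to 0.139% of the counts of sham mice, 0.178 to 0.294% of those of DMSO mice and 0.218 to 0.342% of those of A10i mice. The lowest count in a single library was that of Ctsk in a sham mouse, and the highest, 30079, that of Ctsb. Levels are given as CPM, the count scaled to its library size, itself corrected by the trimmed mean of M-values (TMM), as the mean ± SD over mice. Heart muscle genes were abundant in every library, with 7 cardiomyocyte markers summing to 35015 to 73218 CPM per mouse.

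The start regions of 8 of the 10 genes were present in the RefSeq promoter table used here (GRCm38.p6, the same assembly as mm10), and those of Ctsb and Ctsh were not analysed here. Ctss and Ctsc, which rose after MI, are shown because their start regions hold the letters GAGGAAGT, a site of the myeloid factor PU.1. Ctsd and Ctsa, the genes that changed least, are shown because theirs hold TCACGTGA, a long form of the CLEAR element of lysosomal genes. For Ctsa the second of 2 annotated starts is shown. Each sequence runs 5′ to 3′ along the gene from 250 bases before to 20 bases after the annotated start, with every matched motif in capitals (on the opposite strand GAGGAAGT reads ACTTCCTC and TATAAA reads TTTATA).
Ctss, chr3:95526536-95526805, plus strand: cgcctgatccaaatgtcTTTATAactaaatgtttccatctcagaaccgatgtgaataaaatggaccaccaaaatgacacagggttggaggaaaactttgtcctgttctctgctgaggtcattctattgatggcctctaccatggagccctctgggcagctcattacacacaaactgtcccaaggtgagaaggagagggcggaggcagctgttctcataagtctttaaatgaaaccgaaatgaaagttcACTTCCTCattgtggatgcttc
Ctsc, chr7:88277835-88278104, plus strand: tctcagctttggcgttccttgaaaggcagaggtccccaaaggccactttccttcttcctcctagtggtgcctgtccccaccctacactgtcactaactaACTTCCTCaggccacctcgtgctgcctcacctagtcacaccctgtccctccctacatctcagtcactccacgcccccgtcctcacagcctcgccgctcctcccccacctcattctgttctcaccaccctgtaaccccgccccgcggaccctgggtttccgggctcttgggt
Ctsd, chr7:142387808-142388077, minus strand: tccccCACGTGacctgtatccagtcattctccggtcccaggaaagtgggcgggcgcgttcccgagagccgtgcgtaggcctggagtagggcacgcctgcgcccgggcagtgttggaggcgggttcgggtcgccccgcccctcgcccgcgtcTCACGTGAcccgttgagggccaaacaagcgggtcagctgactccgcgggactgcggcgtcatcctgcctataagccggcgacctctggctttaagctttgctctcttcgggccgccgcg
Ctsa, chr2:164833523-164833792, plus strand: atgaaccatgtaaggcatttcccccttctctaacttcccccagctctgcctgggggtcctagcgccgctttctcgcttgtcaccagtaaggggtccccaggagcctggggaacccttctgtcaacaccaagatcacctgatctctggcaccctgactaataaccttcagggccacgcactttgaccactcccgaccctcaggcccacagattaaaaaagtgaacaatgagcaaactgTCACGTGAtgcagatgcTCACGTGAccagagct

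Positions count from 1 at the annotated start, with -1 just before it, and the search covered 250 bases before to 50 after it, on both strands. The 8 genes have 10 start regions in the table, since Ctsa and Lgmn have 2 each. The 6 letters CACGTG, which also lie inside TCACGTGA, stood in 4 of these 10, against 7.15% of all 32851 promoters in the table. These were the regions of Ctsd and Ctsl and a single region each of Ctsa and Lgmn. TCACGTGA stood in 2 of the 10, at position -99 of Ctsd and at positions -13 and 5 of the second start of Ctsa, against 0.974% of all promoters. GAGGAAGT stood in 2 of the 10, on the opposite strand at position -151 of Ctsc and -2 of Ctss, where it spans the start, against 3.2% of all promoters. The letters TATAAA were in 2 of the 10, the region of Ctss and the region of Lgmn that also holds CACGTG (13.6% of all promoters). TGANTCA, the AP-1 motif, was in none of the 10 (7.81% of all promoters). These are matches of letters and no measure of binding.

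Levels of different genes were compared per kilobase of exon. In sham hearts Ctsd stood highest with 247.5 ± 6.08 CPM per kilobase and Ctsb second with 75.1 ± 2.64. Legumain followed with 34.1 ± 1.13, then Ctsa (26.4 ± 0.136), Ctsl (22.1 ± 0.738), Ctsz (16.5 ± 1.77) and Ctss (12.2 ± 1.01). Ctsh (7.11 ± 0.42) and Ctsc (6.79 ± 0.0783) overlapped in sham mice and did not differ beyond their spread, and Ctsk, the bone-resorbing protease of osteoclasts, was lowest with 3.38 ± 0.476 (n = 3 each). Every other neighbouring pair in this order was separated in all sham mice.

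After MI the order of the middle genes was different. Ctss stood in the place below Lgmn, with 56.8 ± 30.3 CPM per kilobase in DMSO and 73.4 ± 35.6 in A10i mice (n = 4 each), and its range overlapped those of Lgmn above it and Ctsz below it in both groups. Ctsd, Ctsb and Lgmn kept the first 3 places and Ctsk the last. Of the summed level per length of the 10 genes, Ctsd made up 54.8% in sham, 39.9% in DMSO and 38.8% in A10i hearts, and Ctss 2.71%, 8.65% and 9.82%. The places of Ctsa, Ctsl, Ctsz, Ctss, Ctsh and Ctsc depended on the length used, since the exons of Ctsh add up to 4499 bases but its longest coding transcript has 1617, which puts it above Ctsz instead of below Ctss in sham hearts.

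**Figure D1:**
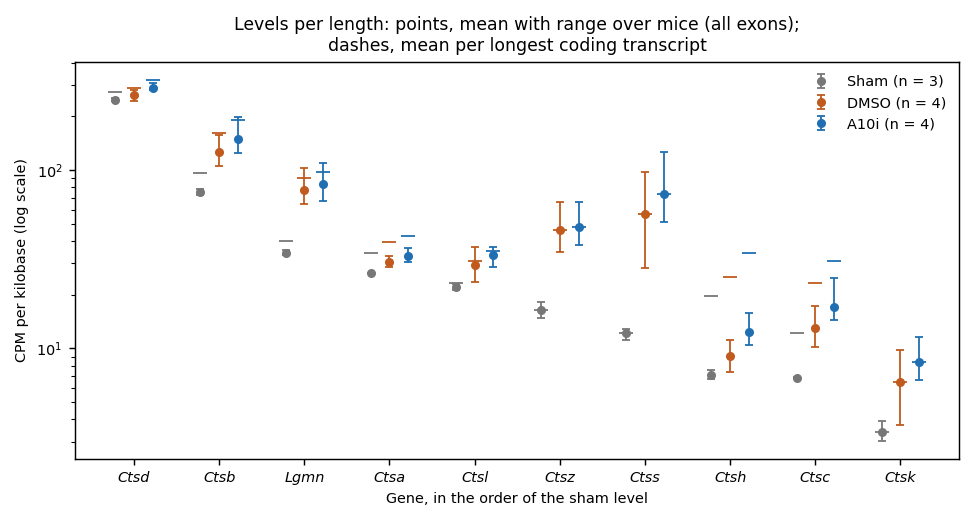
Mean level of each gene in CPM per kilobase (vertical axis, log scale) in sham (grey), DMSO (orange) and A10i (blue) hearts, genes ordered by the sham level. Points with bars are the mean and range over mice per kilobase of all exons, and dashes are the mean per longest coding transcript. Ctsd is highest and Ctsk lowest in each group with all exons, and Ctsz and Ctss stand above Ctsa and Ctsl only after MI.

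The comparison of DMSO and sham mice asks which lysosomal proteases changed in the infarcted heart. Of the 10 genes, 5 rose in DMSO against sham hearts at an adjusted p below 0.01 in edgeR's quasi-likelihood test, where 12.9% of all 17117 genes tested did, and 0 fell, where 9.6% did. These were the cysteine cathepsins Ctss, Ctsz, Ctsc and Ctsb and legumain, with gains of 1.67-fold to 4.63-fold. The median log2 fold change of the 10 genes was 0.83, and that of all genes tested was 0.00211. DESeq2 called 6 of the 10 as higher (15.7% of all genes with an adjusted p) and limma-voom 5 (11.2%).

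Cathepsin S, which trims the invariant chain of MHC class II in antigen-presenting cells, had the largest fold change of the 10. Its level was 17.3, 17.5 and 15.0 CPM in the sham mice, 54.4, 83.8, 38.3 and 131.9 CPM in the DMSO mice, and 171.8, 83.6, 69.0 and 74.6 CPM in the A10i mice. Every infarcted heart stood above every sham heart, but the DMSO and A10i mice were interleaved. Against sham, Ctss was 4.63-fold higher in DMSO mice (log2 fold change 2.21, SE 0.39, adjusted p = 0.00265) and 6.01-fold higher in A10i mice (2.59, SE 0.34, adjusted p = 0.00109, edgeR). The infarcted hearts varied more than the sham hearts, with a coefficient of variation of 53.3% in DMSO and 48.5% in A10i against 8.26% in sham mice.

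Cathepsin Z, a carboxypeptidase, had 26.3, 21.2 and 23.6 CPM in sham, 51.6, 69.3, 50.2 and 94.9 CPM in DMSO, and 95.4, 61.5, 54.7 and 63.4 CPM in A10i mice. Both infarcted groups lay wholly above the sham group, with log2 fold changes of 1.48 (SE 0.22, adjusted p = 0.00137) for DMSO and 1.54 (SE 0.19, adjusted p = 0.000684) for A10i. Cathepsin C, a dipeptidyl peptidase that activates the granule serine proteases of neutrophils and lymphocytes, was nearly equal in the sham mice, with 39.3, 39.1 and 39.9 CPM. It reached 59.1, 78.9, 62.0 and 100.5 CPM in DMSO and 143.9, 84.0, 85.3 and 83.3 CPM in A10i mice. Against sham its log2 fold change was 0.93 (SE 0.18, adjusted p = 0.00355) in DMSO and 1.33 (SE 0.20, adjusted p = 0.00143) in A10i mice.

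Cathepsin B, which acts both inside proteins and at their ends, had 470.6, 454.5 and 438.7 CPM in sham, 646.4, 803.1, 635.2 and 956.7 CPM in DMSO, and 1193, 822.9, 758.3 and 838.6 CPM in A10i mice. It was 1.67-fold higher in DMSO mice (log2 0.74, SE 0.15, adjusted p = 0.00469) and 1.99-fold higher in A10i mice (log2 0.99, SE 0.15, adjusted p = 0.000992) than in sham mice. Cathepsin L, another endopeptidase of broad action, had 143.8, 138.5 and 148.1 CPM in sham, 153.6, 201.7, 171.0 and 238.8 CPM in DMSO, and 241.6, 241.2, 186.3 and 194.3 CPM in A10i mice. Its groups did not overlap with sham either, but only the A10i comparison passed the threshold (log2 0.59, SE 0.11, adjusted p = 0.00201, against 0.41, SE 0.14, adjusted p = 0.0431 in DMSO mice).

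Cathepsins H and K overlapped between DMSO and sham mice. Cathepsin H, an aminopeptidase, had 31.8, 30.2 and 33.9 CPM in sham, 33.2, 44.6, 35.0 and 49.8 CPM in DMSO, and 70.6, 50.5, 47.0 and 54.7 CPM in A10i mice. Cathepsin K, which can cut triple-helical collagen, had 5.94, 4.6 and 4.8 CPM in sham, 5.65, 11.3, 7.19 and 14.9 CPM in DMSO, and 17.5, 10.1, 11.03 and 12.0 CPM in A10i mice. Both passed the threshold in A10i against sham hearts (Ctsh log2 0.80, SE 0.13, adjusted p = 0.00173, Ctsk 1.31, SE 0.20, adjusted p = 0.00118). In DMSO mice the values were 0.34 (SE 0.14, adjusted p = 0.0792) for Ctsh and 0.93 (SE 0.32, adjusted p = 0.0422) for Ctsk, and the lowest DMSO mouse of each lay within the sham range.

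Legumain, which cleaves the single-chain forms of several cathepsins into 2 chains, was the gene whose call in DMSO mice held without each library in turn. It had 77.2, 82.3 and 78.5 CPM in sham, 152.1, 181.4, 149.7 and 238.0 CPM in DMSO, and 253.0, 195.4, 155.8 and 170.3 CPM in A10i mice. All 8 infarcted hearts stood above the 3 sham hearts. It was 2.27-fold higher in DMSO mice (log2 1.18, SE 0.16, adjusted p = 0.000668) and 2.45-fold higher in A10i mice (log2 1.29, SE 0.15, adjusted p = 0.000506).

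The aspartic and the serine protease differed least from sham. Cathepsin D, the main aspartic protease of lysosomes, had 598.3, 572.1 and 575.4 CPM in sham, 573.4, 661.3, 594.2 and 634.3 CPM in DMSO, and 724.1, 658.1, 670.7 and 673.8 CPM in A10i mice. DMSO and sham overlapped (log2 0.078, 95% interval -0.14 to 0.30, adjusted p = 0.551), and the A10i mice stood above sham but did not pass the threshold (0.23, 95% interval 0.047 to 0.42, adjusted p = 0.0482). Cathepsin A, which also shields beta-galactosidase and neuraminidase from degradation, had 124.3, 124.2 and 125.3 CPM in sham, 134.2, 149.6, 137.0 and 155.2 CPM in DMSO, and 172.5, 143.3, 149.5 and 153.3 CPM in A10i mice. It was 1.24-fold higher in A10i than in sham mice (log2 0.32, SE 0.077, adjusted p = 0.00896), and its 1.15-fold difference in DMSO mice did not pass (adjusted p = 0.0743). Since the 95% interval of Ctss in DMSO mice ran from 1.33 to 3.09, it did not meet that of Ctsd.

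**Figure D2:**
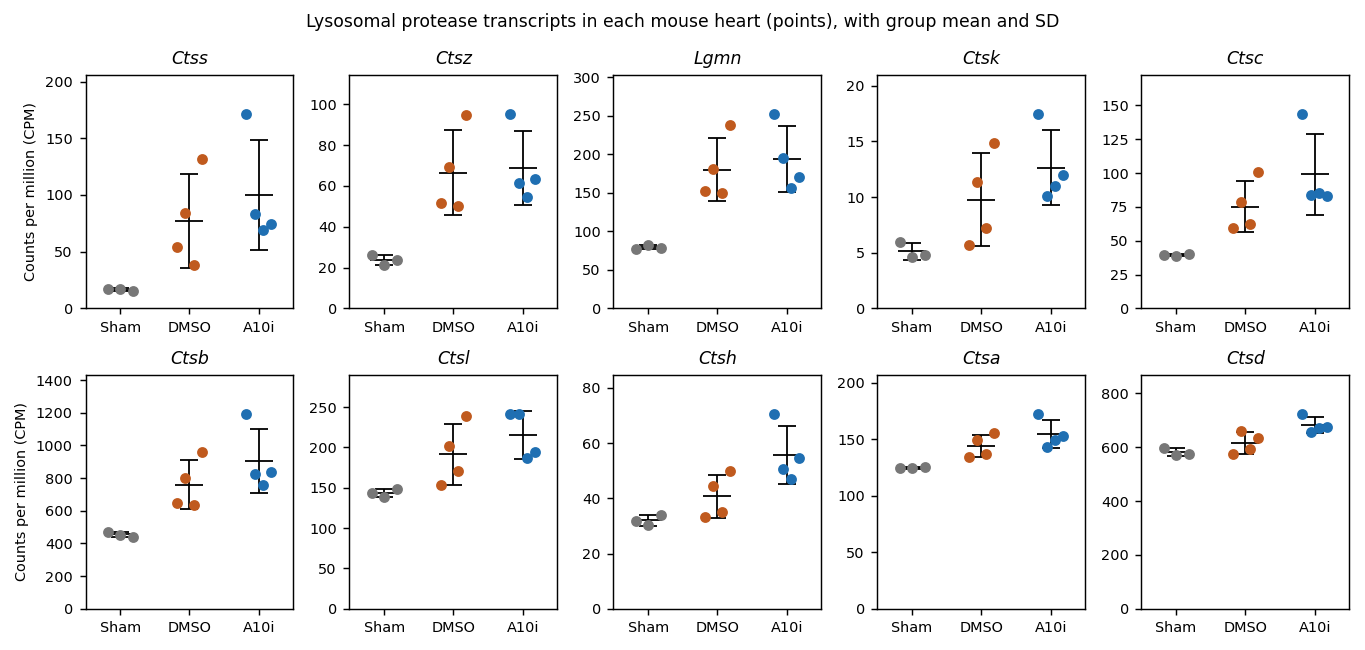
Level of each gene in CPM (vertical axes, each from 0) in the 3 sham (grey), 4 DMSO (orange) and 4 A10i (blue) mice, genes in the order of their DMSO against sham change. Points are mice and bars the group mean and SD. Ctss, Ctsz and Lgmn of all infarcted hearts lie well above sham, whereas Ctsd of sham and DMSO hearts overlaps.

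In all, 9 of the 10 genes rose in A10i against sham hearts at an adjusted p below 0.01 in edgeR, where 13.7% of 16971 genes tested did, and 0 fell, where 9.11% did. Ctsd was the remaining gene. The median of the 10 was 1.14 on the log2 scale, beside -0.00536 for all genes tested. DESeq2 called 10 as higher (14.9% of all genes) and limma-voom 9 (12.3%). In A10i mice all 10 genes lay wholly above the sham group, as did 24.8% of the genes tested, and in DMSO mice 7 did, where 25.1% of the genes tested did. Both comparisons use the same 3 sham mice, so their values are not independent.

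The calls depended on all 3 sham libraries. Without sham mouse S1, S2 or S3, the calls in DMSO mice fell to 2, 1 and 2, and only that of Lgmn remained each time, although the fold changes moved little (Ctss 2.14 to 2.24). In A10i mice 6 to 9 calls remained when a library was left out, and Ctsa, Ctsh and Ctsl were those lost.

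The comparison of A10i and DMSO mice asks what ADAM10 inhibition changed in the infarcted heart. At an adjusted p below 0.01, 0 of the 10 genes were called by edgeR, where 0% of 16792 genes tested were higher. DESeq2, which called 0.605% of all genes as higher, and limma-voom, which called 0%, called 0 of the 10 too. How many of all genes were called as lower in these 3 fits was not determined. All 10 log2 fold changes were above 0, as were 50.7% of those of all genes tested, and their median was 0.21 beside 0.00343 for all genes. The groups overlapped for all 10 genes, whereas A10i lay wholly above DMSO for 4.01% of the genes tested.

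Ctsh was the one gene at an unadjusted p under 0.05, where 7.1% of the genes tested were higher at that level. It was 1.37-fold higher in A10i mice (log2 0.46, 95% interval 0.10 to 0.81, unadjusted p = 0.0166, adjusted p = 0.246, edgeR), with 3 of the 4 A10i mice above the highest DMSO mouse. Ctsc (log2 0.40, 95% interval -0.09 to 0.89), Ctsk (0.38, -0.28 to 1.03) and Ctss (0.37, -0.52 to 1.27) followed. The interval of Ctss allows a fall to 0.698-fold and a gain to 2.41-fold, so with 4 mice a group changes within these bounds were not excluded.

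The intervals of the genes with little spread were narrower. Ctsa (log2 0.11) lay between -0.092 and 0.30, and Ctsd (0.15) between -0.074 and 0.37. Ctsb differed by 0.25 (-0.16 to 0.66), Ctsl by 0.18 (-0.16 to 0.51), Lgmn by 0.10 (-0.31 to 0.52) and Ctsz by 0.05 (-0.46 to 0.56). One library decided the sign of 3 genes: without A10i mouse A116 the log2 fold change was -0.019 for Ctss, -0.15 for Ctsz and -0.047 for Lgmn, and that of Ctsz was also below 0 without DMSO mouse A105 (-0.051) or A128 (-0.059). Leaving out A116 and DMSO mouse A129 together gave 0.36, 0.068 and 0.11.

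**Figure D3:**
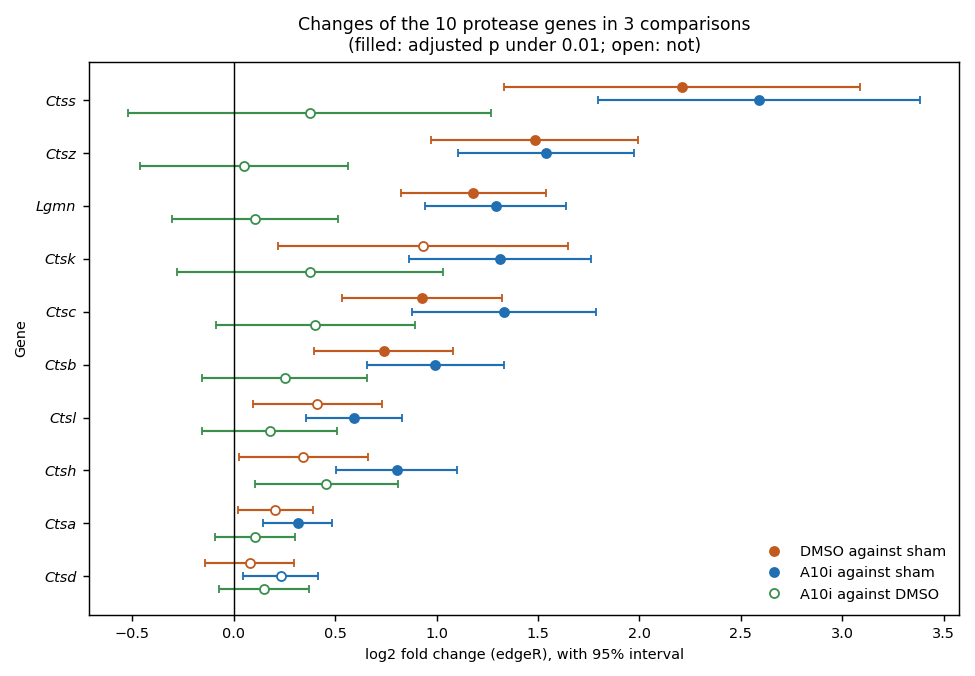
Log2 fold change of each gene with its 95% interval (horizontal axis) in DMSO against sham (orange), A10i against sham (blue) and A10i against DMSO (green) hearts. Filled points have an adjusted p under 0.01 in edgeR. The sham comparisons run from 2.59 for Ctss down to 0.078 for Ctsd, whereas the green points lie between 0.05 and 0.46, all open.

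The genes varied together from mouse to mouse. A116 was the A10i mouse with the highest level of 10 of 10 genes, and A129 the DMSO mouse with the highest level of 9, the exception being Ctsd, which was highest in A127. A105 was the lowest DMSO mouse for 6 genes and A128 for the other 4. The CPM of the 10 genes summed to 1483 to 1535 in sham, 1864 to 2615 in DMSO and 2188 to 3084 in A10i mice.

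Markers of several cell types moved with these levels. The 10 macrophage markers summed to 294.5 to 322.5 CPM in sham, 393.2 to 606.3 in DMSO and 524.3 to 843.4 in A10i mice, and A129 and A116 had the highest sum of their groups. The same 2 mice had the highest sums of the 7 fibroblast markers, 3976 and 5917 CPM, against 885.0 to 934.0 CPM in sham mice, and the lowest sums of the 7 cardiomyocyte markers, 35015 and 40990 CPM. A129 and A116 also had the highest sums of monocyte (144.1 and 90.7 CPM), neutrophil (135.3 and 53.1) and osteoclast markers (7.46 and 9.48). Most of the osteoclast sum was Acp5, with a mean of 3.92 of 4.30 CPM in DMSO and 5.37 of 5.55 CPM in A10i mice. For dendritic cell, endothelial, T and NK cell and B cell markers A129 and A116 were not both the highest of their groups. Of the 10 macrophage markers, 6 rose in DMSO and 8 in A10i against sham hearts, and 0 of any marker list were called between A10i and DMSO mice by edgeR. At an unadjusted p under 0.05, 6 of 10 macrophage markers (median log2 fold change 0.41) and 2 of 7 fibroblast markers (0.43) were higher with A10i. The part of these cells in the protease levels was not tested.

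The other marker lists had these values. Monocyte markers rose in 4 of 5 genes in both sham comparisons, with sums of 4.8 to 6.2 CPM in sham, 54.8 to 144.1 in DMSO and 35.9 to 90.7 in A10i mice. All 7 neutrophil markers tested rose in both, and Ly6g was at 0 in sham mice. The neutrophil sums were higher in DMSO (74.2 to 135.3 CPM) than in each A10i mouse (17.7 to 53.1). With A10i, 7 of 7 were lower than with DMSO at an unadjusted p under 0.05 (edgeR, median log2 fold change -1.52). The share of all genes lower at that level was not determined. Fibroblast markers rose in 3 and 6 of 7, endothelial markers fell in 2 and 1 of 5, and cardiomyocyte markers fell in 3 and 2 of 7. Of the osteoclast markers, whose cells are the best known source of Ctsk, 1 was tested and rose, Acp5, and Calcr and Dcstamp were at 0 in sham mice. Dendritic cell markers passed in 0 and 1 of 3, B cell markers in 0 of 1 and 0 of 2, and T and NK cell markers were too low to test.

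**Figure D4:**
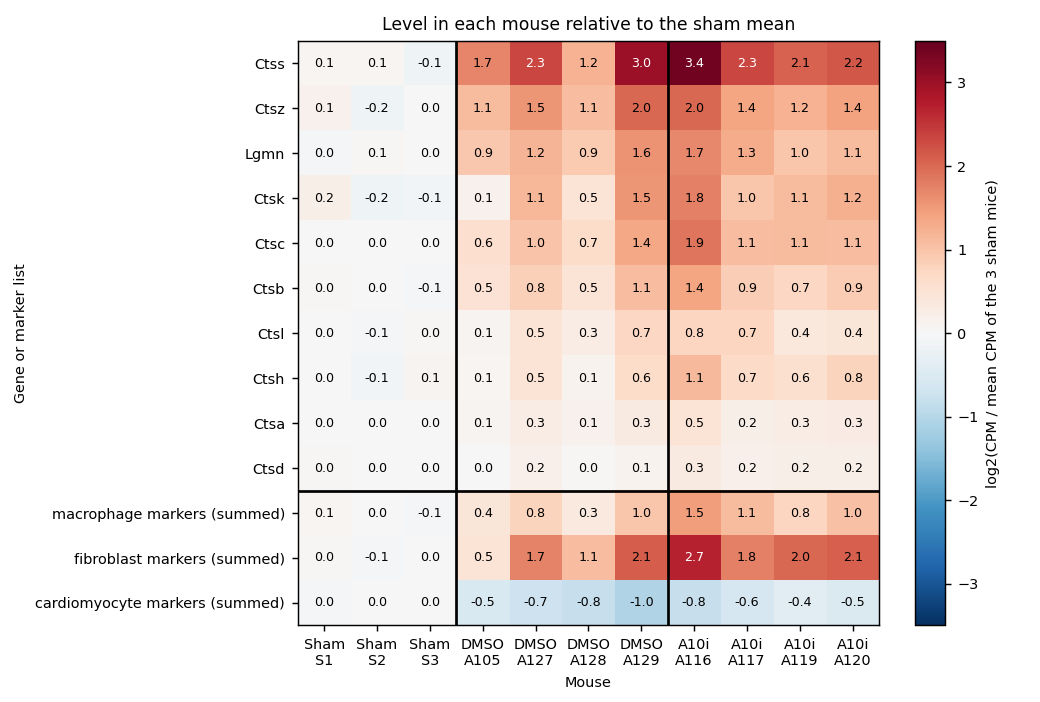
Log2 ratio of each mouse to the mean of the 3 sham mice for the 10 genes and for the summed markers of 3 cell types (colour and printed value; columns are mice). A129 and A116 are the darkest columns of their groups for the proteases, with Ctss at 2.99 and 3.37, and also for the macrophage and fibroblast markers.

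Some genes followed the proteases closely over the 11 libraries, as measured by the mean absolute difference of centred log2 CPM among 16525 candidates. Ctss was nearest to Mpeg1, a pore-forming protein of macrophages (0.0944, where Ctss itself spans 3.51), followed by Cd68 and Cd84. Ctsh was nearest to Csf1r, the receptor for macrophage colony-stimulating factor (0.0646), and Ctsc to Apobec1 (0.0985) and the macrophage marker Adgre1 (0.1). Ctsb was nearest to the lysosomal carboxypeptidase Scpep1 (0.0436) and to progranulin, Grn (0.0509).

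The remaining genes had other neighbours. Ctsk was nearest to the matrix protein Sparc (0.0963), then Rcn3 and Cxcl16. Ctsz was nearest to Sh3bgrl3 (0.0721) and vimentin, Vim (0.0736), and Lgmn to Rassf2 (0.0547). Ctsd, which changed little, was nearest to Fkbp9, Kdelr1 and the lysosomal membrane protein Lamp1 (0.0203, 0.0203 and 0.0242), Ctsl to Atp6ap2 (0.068), and Ctsa to Rfc2 (0.0315). Ctsk and Ctss lie next to each other on chromosome 3, 17423 bases apart, and have different nearest genes.

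Other cathepsins of the family had low counts or no called change. Ctsf and Ctso had 535 to 1268 and 368 to 706 counts per library, with log2 fold changes against sham of -0.51 and -0.02 in DMSO and -0.42 and -0.11 in A10i mice, none past the threshold. The 9 genes of the family on chromosome 13 that were counted separately from Ctsl had at most 1 count in a library. Cathepsin G, a granule protease of neutrophils, had at most 2 counts, and Ctsw at most 9. Ctse, an aspartic protease with 1 to 22 counts, had a log2 fold change of 2.83 in DMSO against sham hearts that did not pass (adjusted p = 0.0125, edgeR), and was too low to test in A10i against sham hearts.

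Of the wider list of 11 other lysosomal peptidases, 2 of 9 tested rose in DMSO and 3 of 8 in A10i against sham hearts, and 0 fell (median log2 fold change 0.42 and 0.41), a share of 22.2% and 37.5%. Napsa, an aspartic protease related to cathepsin D, rose most (log2 3.16 and 2.57) from a low sham level of 0.343 ± 0.165 CPM. Scpep1 rose by 0.71 and 0.94, and the dipeptidyl peptidase Dpp7 passed in A10i mice (0.97).

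The protease inhibitors rose in 6 of 8 genes tested in both comparisons, a share of 75.0%, with medians of 1.06 and 1.03. Serpina3n, a secreted serpin, went from 3.56 ± 0.725 CPM in sham (n = 3) to 178.0 ± 51.0 in DMSO and 144.5 ± 69.3 in A10i mice (n = 4 each), with log2 fold changes of 5.64 and 5.34. Serpinb1a, which blocks neutrophil serine proteases, rose by 3.38 and 3.16, and Serpina3g by 3.04 and 3.01 from a low sham level of 0.372 ± 0.104 CPM. The cystatins Cstb (1.56 and 1.42) and Cst3 (0.56 and 0.63), inhibitors of cysteine cathepsins, rose as well.

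Of the 32 lysosomal hydrolases for sugars, lipids, phosphates and sulfates, 4 rose and 2 fell in DMSO hearts and 12 rose and 1 fell in A10i hearts, with medians of 0.11 and 0.24. The DMSO shares, 12.5% and 6.25%, were near or below those of all genes (12.9% and 9.6%), and 37.5% rose in A10i hearts, where 13.7% of all genes did. These counts come from separate fits of each pair of groups. In a joint fit of all 11 libraries 7 hydrolases were called in DMSO hearts, rises and falls together, and fewer in A10i hearts. Acp5 rose most (log2 3.01 and 3.47). In DMSO mice Gla, which clears glycolipids, rose by 1.14, and Aga and Manba fell by 0.65 and 0.34 on the log2 scale. In A10i mice Gusb rose by 1.05, and Idua fell by 0.37 on the log2 scale.

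Membrane and lipid-handling proteins of the lysosome rose in 7 of 20 genes (35.0%) in DMSO and 9 of 20 (45.0%) in A10i hearts, led by Gpnmb (log2 4.20 and 4.97, neither called by limma-voom, and the former also not with DESeq2's size factors, without the filter on low counts, or when any single mouse of S1, S2, S3, A127 and A129 was left out) and the macrophage marker Cd68 (2.35 and 2.56), with medians of only 0.038 and 0.12. Slc11a1, a metal transporter of phagosomes, rose by 1.78 in DMSO, and Laptm5 by 1.64 in A10i mice. Subunits of the proton pump, which acidifies the lysosome, rose in 3 of 18 genes in DMSO and 8 of 18 in A10i hearts, and 0 fell (medians 0.16 and 0.20). The share was 16.7% in DMSO mice, near the 12.9% of all genes, and 44.4% in A10i mice, beside 13.7%. The 3 subunits were Atp6v1h (0.71), Atp6v1b2 (0.51) and Atp6v0e (0.47) in DMSO mice, and the 3 largest in A10i mice were Atp6v0d2 (2.26), Tcirg1 (1.17) and Atp6v1a (0.70). The level of Atp6v0d2 was low, 0.239 ± 0.117 CPM in sham and 1.16 ± 0.607 CPM in A10i mice. In the joint fit of all 11 libraries 5 pump genes were called in DMSO hearts and fewer in A10i hearts.

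The sorting receptors and regulators of lysosomal genes split, with medians of 9.29e-05 and -0.027. In DMSO hearts 3 of 10 rose, Tfec (log2 2.72), Lrp1 (0.67) and the mannose 6-phosphate receptor M6pr (0.35), and 3 fell, the transcription factors Mitf (-0.95) and Tfeb (-0.46), which bind CLEAR elements, and the sorting receptor Sort1 (-0.45). In A10i hearts Tfec (2.58) and Lrp1 (0.68) rose and Gnptab, which makes the mannose 6-phosphate tag, fell by 0.27 on the log2 scale. The sham level of Tfec was low, 0.409 ± 0.161 CPM.

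Between A10i and DMSO mice, 0 genes of any of these lists were called. Mitf had the smallest unadjusted p of those named (log2 0.60, unadjusted p = 0.00452, adjusted p = 0.161, edgeR), at 64.6 ± 3.53 CPM in sham mice, 33.6 ± 6.13 CPM with DMSO and 50.8 ± 9.64 CPM with A10i. Aga (0.43), Arsb (0.44), Cpq (0.28), Tpp1 (0.25), Ostm1 (0.24) and Ctns (0.26) were also above 0 at an unadjusted p under 0.05, and Atp6v1h was below 0 (-0.23). The inhibitors Cst6 (0.63) and Serpinb9 (0.19), the pump subunit Atp6v1b2 (-0.14) and Gnptab (-0.11) had larger p-values.

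**Figure D5:**
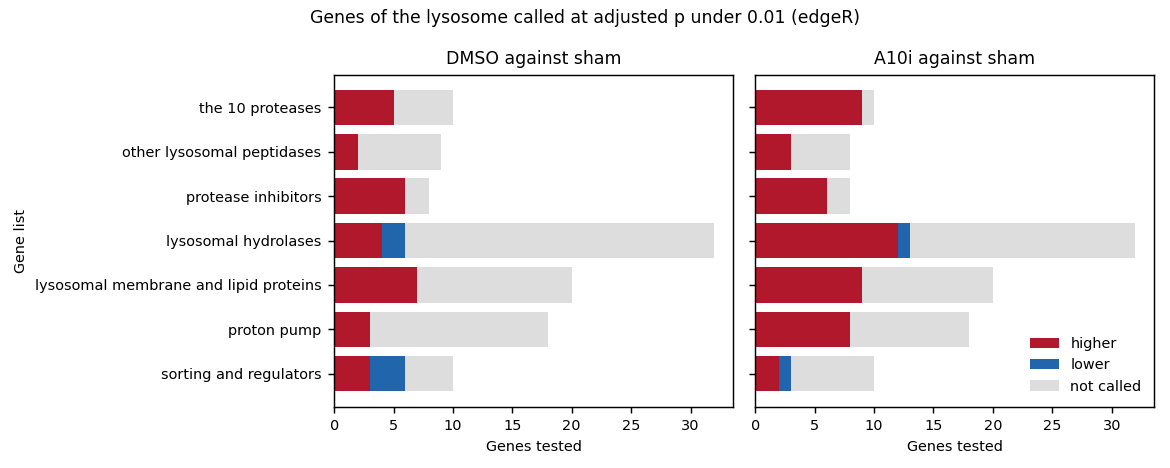
Number of genes tested (horizontal axis) in each list of lysosomal genes, split into those higher (red), lower (blue) or not called (grey) at an adjusted p under 0.01 in edgeR, for DMSO and A10i against sham. The 10 proteases have 5 and 9 genes higher and none lower, and only the hydrolases and the sorting and regulator list hold lower genes.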

How the data were processed

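Poly(A) RNA of 11 mouse hearts (3 sham, 4 DMSO, 4 A10i, taken as separate animals by their numbers) was sequenced from strand-specific libraries. The authors aligned read pairs to mm10 with GSNAP and counted reads per Ensembl gene with featureCounts (2.0.1), per the labels and methods, and deposited raw counts without normalization. The strand setting of the counting is not given in the sources used here, so counts of Ctsa (overlapping Neurl2 and Pltp), Ctsb (Fdft1), Ctsz (Nelfcd) and Ctsc (Gm26522), whose partners lie on the opposite strand, are uncertain. Ctsl also overlaps Gm47123 on the opposite strand. On the same strand Ctsd overlaps Gm49369, Ctsl Gm49230 and Ctss Hmgb1-ps5. These partners of Ctsd, Ctsl and Ctss had at most 6 counts in a library, and whether reads were lost to the overlaps was not determined. The deposited table also gives exon lengths. The 92 spike-in rows were left out of library sizes and tests.

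Symbols and positions came from GENCODE M21. Each pair of groups was fitted on its own libraries in R 4.3.3 with edgeR 4.0.16 (filterByExpr, TMM, robust quasi-likelihood F-test, two-sided, Benjamini-Hochberg over all genes tested, threshold 0.01). DESeq2 1.42.0, limma-voom (limma 3.58.1), other scalings and filters, a joint fit, the threshold 0.05 and leaving out each library were the alternatives. The main edgeR fit, the DESeq2 and limma-voom fits and the search for nearest genes were tested on simulated data, and the other steps were not. Levels are CPM on TMM sizes over all 11 libraries, also per kilobase of exon.

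The members and lists were chosen with earlier results of these data known, so no list test was made. The text names all members, up to 3 genes per list, comparison and direction with the largest change among those called, or the 2 with the smallest p where none was, and the nearest genes of each member among 16525 genes tested in all 3 comparisons. Some genes that this rule takes are not reported here. Ctsf, Ctso, Ctsg, Ctsw, Ctse, Cstb and Cst3 were named after their values were seen. Cd68 stands in both the macrophage and the membrane list, and Acp5 in the osteoclast and the hydrolase list. Motif searches used RefSeq start regions.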

Additional observations from a re-analysis of the deposited data

Results flagged for a closer look

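In 20 groups of 4 mice (10 genes in DMSO and A10i mice), 2 held a mouse far from the other 3 by Dixon's test. Chance flags about 1 in 20 independent groups. These groups are not independent, since they come from the same mice, in which the genes varied together, so the flags cannot be set against that rate. Both flags fell on A10i mouse A116. Its Ctsc level of 143.9 CPM stood apart from the other A10i mice by 0.968 of the range of the group, and its Ctss level of 171.8 CPM by 0.858. Without this mouse the mean of the A10i group was 84.2 CPM for Ctsc and 75.7 CPM for Ctss.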

How the results depend on the processing

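The number of the 10 genes called in DMSO against sham hearts was 5, and 3 without the filter on low counts, where Ctss (adjusted p = 0.0306) and Ctsz (0.0124) were lost, and 1 to 6 when a library was left out. Other tools, scalings and filters and the joint fit gave 5 or 6, and a threshold of 0.05 gave 7. The cause of the loss without the filter was not tested. Without sham mice S1, S2 and S3 the adjusted p of Ctss was 0.0171, 0.0148 and 0.0175, that of Ctsb 0.0228, 0.0261 and 0.029 (0.0134 without DMSO mouse A127), and that of Ctsc 0.0187, 0.0188 and 0.0179, and that of Ctsz was 0.01 without S2. Ctsk was called by DESeq2 (adjusted p = 0.00775) and without A105 (0.00943). In A10i against sham hearts the count was 8 to 10 over the alternatives and 6 to 9 without a library. Ctsd was called by DESeq2 (0.00139) and with library size alone (0.00329), Ctsa was not in the joint fit (0.0145), nor Ctsc without the filter (0.0147). Scaling by library size alone moved the median log2 fold change of all genes against sham by 0.21 in DMSO and 0.19 in A10i mice, and 5 and 10 of the 10 genes were called. Between A10i and DMSO mice 0 were called under every alternative run. Over single libraries left out, the log2 fold change ran from -0.019 to 0.76 for Ctss, from -0.15 to 0.27 for Ctsz (-0.051 and -0.059 without A105 and A128) and from -0.047 to 0.27 for Lgmn. Leaving out A116 and A129 together, chosen after seeing the data, gave 5, 9 and 0 calls. No paired analysis was possible because the mouse numbers are not shared between groups. Called changes named in the lists could also be lost without 1 library or under another setting, among them Gpnmb in DMSO mice (adjusted p = 0.0411 without A129, 0.0382, 0.039 and 0.0379 without S1, S2 and S3, 0.014 without A127, 0.111 with limma-voom, 0.0674 without the filter and 0.0101 with DESeq2's size factors). List counts, rises and falls together, that moved by over 1.5 times were those of the membrane proteins (7, 11 with DESeq2 and 13 at the threshold 0.05), the hydrolases (6, and 13 at 0.05) and the proton pump (3, 7 with DESeq2, 5 in the joint fit and 8 at 0.05) in DMSO mice, and in A10i mice those of the other peptidases (3, 5 with DESeq2 and 6 at 0.05), the hydrolases (13, and 6 in the joint fit), the pump (8, and 4 in the joint fit) and the sorting genes (3, and 6 with DESeq2 or at 0.05). In the joint fit the hydrolases thus had 7 calls in DMSO and 6 in A10i mice, and the pump 5 and 4, so the larger A10i counts were not kept. Scaled by library size alone, Aga, Manba, Tfeb and Sort1 in DMSO and Idua and Gnptab in A10i mice stayed below sham but were not called.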
